A study of Mus musculus with 4 samples.

Results

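The kappa light-chain locus of the mouse has 5 joining (J) segments, IGKJ1 to IGKJ5. The assembled kappa transcripts of control B220lo bone marrow cells, all called productive, used 4 of them. The members were the contigs called as kappa chain (IGK) in the control B220lo library, grouped by the J segment that the deposited table names. They numbered 7402 of the 18894 immunoglobulin contigs of that library and of the 22449 contigs of all libraries. IGKJ1 had 1812 contigs, IGKJ2 had 2175, IGKJ4 had 1284 and IGKJ5 had 2131. A contig is a transcript sequence assembled from the reads of 1 cell barcode, and its UMI count is the number of tagged RNA molecules behind it.

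Bone marrow cells were sorted on CD45.2, which tells donor from host cells after a transplant, and were taken 10 weeks after transplantation. The series has 4 single-cell libraries, 1 each of control Kit+, Mll3/4 deleted Kit+, Mll3/4SI Kit+ and control B220lo cells. The receptor Kit is carried by early blood progenitors, and a low level of B220 by developing B cells. The labels give no genotype for the control beyond that word, no promoter or Cre for the deletion, no meaning of SI and no number of mice, so animals within a library cannot be told apart. Cells of 1 library are not replicates. No difference between J segments was therefore tested. All intervals below are exact 95% intervals (Clopper-Pearson for shares, Poisson for summed counts) and cover counting error only. Those of ratios between summed counts are conditional on their total.

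A B cell precursor joins 1 V segment to 1 J segment by the RAG1 and RAG2 recombinase to make a kappa gene. Because several J segments lie downstream of the first, a kappa allele that has already joined can be joined again, with a V segment further upstream and a J segment further downstream, which is called receptor editing. V segments lie in either orientation, so a join removes the DNA in between by deletion or turns it around by inversion. Cells that make no suitable kappa chain can rearrange the lambda (IGL) locus.

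The germline J segments are shown because they fix the last residues of the third complementarity-determining region (CDR3), the loop made at the V-J junction, and because 1 of the 5 was not seen. All lie on the plus strand of chromosome 6 in mm10, in the order given, upstream of the constant exon Igkc at chr6:70726435-70726966. Capitals mark the bases that fall in the CDR3, and IGKJ3, which gave no CDR3, is in lower case.
IGKJ1: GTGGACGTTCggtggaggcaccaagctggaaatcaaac
IGKJ2: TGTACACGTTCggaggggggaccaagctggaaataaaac
IGKJ3: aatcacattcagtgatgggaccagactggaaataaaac
IGKJ4: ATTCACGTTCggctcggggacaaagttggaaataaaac
IGKJ5: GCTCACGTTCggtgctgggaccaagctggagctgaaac
The positions are chr6:70722562-70722599 for IGKJ1, chr6:70722916-70722954 for IGKJ2, chr6:70723223-70723260 for IGKJ3, chr6:70723548-70723585 for IGKJ4 and chr6:70723886-70723923 for IGKJ5. Gaps of 268 to 316 bases separate neighbouring segments, and 2511 bases separate IGKJ5 from Igkc. IGKJ3 does not encode the phenylalanine-glycine-any-glycine motif that the other 4 carry in their reading frame. It was named in 0 of 7402 contigs, which allows a share of up to 0.0405% (3 counts of the total, the limit given here for any count of 0). All these contigs were called productive, so the limit does not cover other IGKJ3 joins in the cells. Behind the CDR3, the bases matched the germline segment exactly in 94.7% of IGKJ1, 97.6% of IGKJ2, 91.9% of IGKJ4 and 98.8% of IGKJ5 contigs. In IGKJ4 the next most frequent version was in 54 contigs, of which 53 carried 1 rearrangement of IGKV6-23, and in IGKJ1 it was in 37 contigs, of which 36 carried 1 rearrangement of IGKV4-59. The median was 3 UMIs (maximum 533) in those 54 contigs and 2 UMIs (maximum 1197) in those 37.

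Many contigs rested on few molecules, and these were not spread evenly over the J segments. Of the 7402 contigs, 2703 (36.5%) had under 10 UMIs, and 108 had 1000 UMIs or more and held 79.4% of all IGK UMIs. A rearrangement is taken here as a V segment, a J segment and the CDR3 bases. Among contigs under 10 UMIs, 45.9% (95% interval 44.1 to 47.8%) had the rearrangement of a contig of 1000 UMIs or more, against 18.3% of the 4591 contigs with at least 10 but fewer than 1000. That share was 20.3% for IGKJ1, 61.1% for IGKJ2, 52.9% for IGKJ4 and 42.8% for IGKJ5. IGHA was the heavy-chain class in 84.8% of the cells with a contig of 1000 UMIs or more and 1 heavy chain, while IGHM was the class in 91.4% of all cells with 1 kappa and 1 heavy chain. The IGHM share was 90.6% with IGKJ1, 91.5% with IGKJ2, 90.7% with IGKJ4 and 92.4% with IGKJ5. Whether low-UMI contigs came from free RNA of the cells with the highest counts was not tested, and most results below are given with and without contigs under 10 UMIs.

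Over all contigs IGKJ2 and IGKJ5 were the most used segments, IGKJ1 followed, and IGKJ4 was the least used. IGKJ2 took 29.4% of contigs (28.3 to 30.4%), IGKJ5 28.8% (27.8 to 29.8%), IGKJ1 24.5% (23.5 to 25.5%) and IGKJ4 17.3% (16.5 to 18.2%). Use did not follow the order of the segments along the chromosome. Among the 4699 contigs of 10 UMIs or more, the shares were 28.6% for IGKJ2, 28.3% for IGKJ5, 27.1% for IGKJ1 and 16.0% for IGKJ4, and the intervals of the first 3 overlapped. Contigs under 10 UMIs held IGKJ1 at 19.9% and IGKJ4 at 19.7%. When each of the 1382 distinct rearrangements was counted once, IGKJ5 led with 30.3% (27.9 to 32.8%), ahead of IGKJ2 at 26.0%, IGKJ1 at 25.3% and IGKJ4 at 18.3%. Among the 5212 contigs that shared no rearrangement with one of 1000 UMIs or more, IGKJ2 fell below IGKJ1, with 29.9% for IGKJ5, 29.2% for IGKJ1 (28.0 to 30.4%), 23.6% for IGKJ2 (22.5 to 24.8%) and 17.3% for IGKJ4. That count leaves out whole rearrangements, with 840 contigs of at least 10 but fewer than 1000 UMIs. It bears most on IGKJ2, which had 43 of the 108 contigs of 1000 UMIs or more, against 20 for IGKJ1. IGKJ4 was lowest in each of these counts, and the order of the other 3 changed with what was counted.

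**Figure D1:**
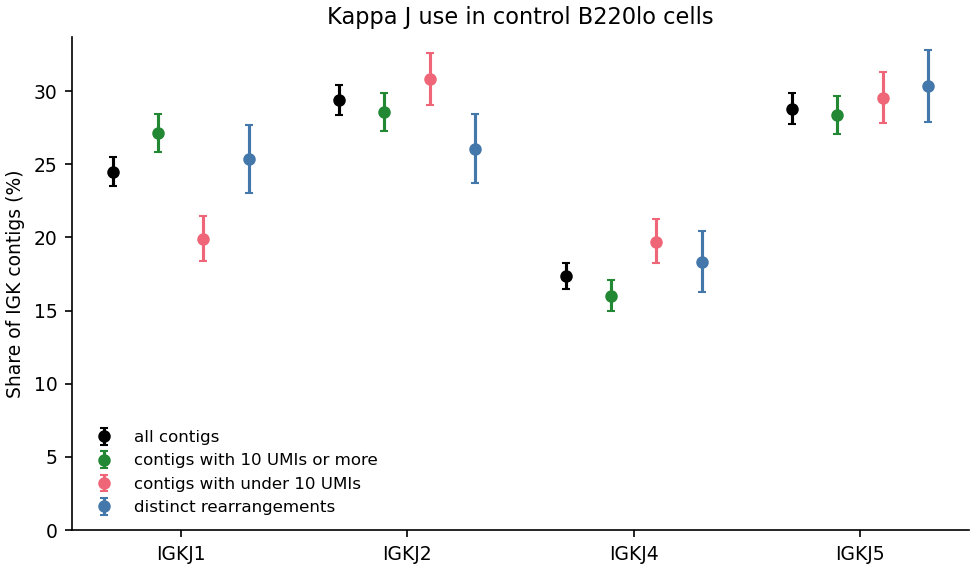
Share of IGK contigs (y axis, %) by J segment (x axis) in the control B220lo library, with points for all contigs, contigs of 10 UMIs or more, contigs under 10 UMIs and distinct rearrangements, and bars for exact 95% intervals. IGKJ4 is lowest in all 4 sets, though close to IGKJ1 among contigs under 10 UMIs (19.7% against 19.9%).

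IGKJ1 contigs had the highest median UMI count. The median was 25 UMIs for IGKJ1 (quartiles 7 and 51), 18 for IGKJ2 (4 and 45), 13 for IGKJ4 (4 and 33) and 15 for IGKJ5 (5 and 37). Without contigs under 10 UMIs the medians were 39, 36, 29 and 30 in the same order, so the IGKJ1 and IGKJ2 contigs were still above those of IGKJ4 and IGKJ5. The highest contig of each segment had 13266 UMIs for IGKJ1, 14803 for IGKJ2, 11460 for IGKJ4 and 12172 for IGKJ5. Contigs of 1000 UMIs or more were most frequent with IGKJ2, at 43, against 20 for IGKJ1, 15 for IGKJ4 and 30 for IGKJ5. Reads per UMI were alike, with medians of 32.2 to 33.0. In the gene matrix, the J features Igkj1 to Igkj5 had 0 UMIs, and the kappa constant gene Igkc had at least 1 UMI in 59.7% of IGKJ1, 57.3% of IGKJ2, 49.9% of IGKJ4 and 52.3% of IGKJ5 cells. Those shares were 72.2%, 74.4%, 67.5% and 66.5% in cells whose contig had 10 UMIs or more. In barcodes with no immunoglobulin contig and at least 3 NK and T cell markers, which should lack Igkc, the share was 11.7%.

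The contigs used 97 V genes, of which 81 were joined to each of the 4 J segments. IGKV1-135 (chr6:67609713-67610508) had the most contigs, 431, and IGKV1-110 followed with 309, IGKV2-137 with 304, IGKV14-100 with 274 and IGKV6-23 with 266. The rest of the 10 most used were IGKV14-126 with 262 contigs, IGKV14-111 with 248, IGKV1-117 with 238, IGKV17-127 with 181 and IGKV9-120 with 167. Several of these were mostly joined to 1 J segment. IGKV14-100 (chr6:68519012-68519477) was joined to IGKJ2 in 240 of 274 contigs, and IGKV14-126 (chr6:67896172-67896642) to IGKJ5 in 238 of 262. IGKV1-135 was joined to IGKJ1 in 211 of 431 contigs (49.0%). Seen from the J side, the V genes most used were IGKV1-135 (11.6%), IGKV14-111 (5.30%) and IGKV1-117 (5.13%) for IGKJ1, and IGKV14-100 (240 of 2175 contigs), IGKV14-111 (4.69%) and IGKV1-135 (4.41%) for IGKJ2. They were IGKV1-110 (14.0%), IGKV2-137 (12.5%) and IGKV6-23 (7.01%) for IGKJ4, and IGKV14-126 (11.2%), IGKV8-19 (4.69%) and IGKV16-104 (3.75%) for IGKJ5. With contigs of 10 UMIs or more, the leading V gene held 12.8% of IGKJ1, 5.89% of IGKJ2, 5.19% of IGKJ4 and 4.65% of IGKJ5 contigs, so IGKJ1 was the most concentrated on 1 V gene.

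In 3 of the V-J pairs with most contigs, nearly all contigs had 1 rearrangement, while IGKV1-135 to IGKJ1 was spread over several. The CDR3 of the rearrangement with most contigs is shown for IGKJ2, IGKJ5 and IGKJ4 first, then 3 from IGKV1-135 and IGKJ1, then the IGKV1-135 joins to IGKJ2 and IGKJ5. Capitals mark bases that match the end of the germline J segment.
IGKV14-100 to IGKJ2: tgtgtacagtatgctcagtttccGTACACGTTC
IGKV14-126 to IGKJ5: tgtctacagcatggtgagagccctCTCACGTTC
IGKV1-110 to IGKJ4: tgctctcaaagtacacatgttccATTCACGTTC
IGKV1-135 to IGKJ1, complete J end: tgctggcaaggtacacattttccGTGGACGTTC
IGKV1-135 to IGKJ1, shorter J end: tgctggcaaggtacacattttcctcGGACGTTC
IGKV1-135 to IGKJ1, shortest J end: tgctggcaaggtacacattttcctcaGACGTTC
IGKV1-135 to IGKJ2: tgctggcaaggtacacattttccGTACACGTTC
IGKV1-135 to IGKJ5: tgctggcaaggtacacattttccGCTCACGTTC
The IGKV14-100 join was in 235 contigs with a median of 4 UMIs and a maximum of 9147, and 38 of them had 10 UMIs or more. The IGKV14-126 join was in 224 contigs (33 with 10 UMIs or more, maximum 8923), and the IGKV1-110 join in 175 (36 with 10 UMIs or more, maximum 8252). These 3 were each led in UMIs by a few contigs and were low elsewhere. The shorter IGKV1-135 to IGKJ1 join was different, with 62 contigs of which 57 had 10 UMIs or more and none over 94 UMIs. The complete form was in 82 contigs (47 with 10 UMIs or more) and the shortest in 42 (40 with 10 UMIs or more). The IGKV1-135 joins to IGKJ2 and IGKJ5 were in 51 and 34 contigs.

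The same kappa rearrangement was found beside many different heavy chains. Among contigs of 10 UMIs or more there were 1163 distinct rearrangements, of which 596 were in 1 contig and 131 in 10 contigs or more. Those 131 held 2467 of the 4699 contigs. Of the 2467, 2258 lay in a cell with a heavy chain. Beside them, 2147 different heavy-chain CDR3 entries were counted, where a cell with over 1 heavy chain gave them together as 1 entry. For the shorter IGKV1-135 to IGKJ1 join, 52 such contigs lay beside 52 different entries. Cells that shared these kappa rearrangements thus mostly differed in their heavy chain.

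V segments differed in which J segment they were joined to also among contigs of 10 UMIs or more. In the 39 V genes with at least 50 such contigs (3606 contigs), the IGKJ1 share ran from 0 of 57 contigs for IGKV8-28 (a share of up to 5.26%) to 66.3% for IGKV10-96, with a median of 26.3%. The IGKJ1 interval lay above the share over all V genes (27.1%) in 8 V genes and below it in 13. For IGKJ5 the range was 3.92 to 70.5%, with 10 V genes above and 10 below the overall 28.3%. For IGKJ2 the range was 9.84 to 78.4%, with 4 above and 4 below, and for IGKJ4 5.66 to 29.2%, with 6 above and 6 below. Both ends of the IGKJ2 and of the IGKJ5 range came from IGKV14-100 and IGKV14-126. Of the 40 IGKV14-100 contigs joined to IGKJ2, 38 had 1 rearrangement, with a median of 15 UMIs. Of the 43 IGKV14-126 contigs joined to IGKJ5, 33 had 1 rearrangement, with a median of 14 UMIs. The medians of all IGKJ2 and IGKJ5 contigs at this minimum were 36 and 30 UMIs. IGKV1-135 remained the most used V gene at this minimum, with 318 contigs of which 51.3% were joined to IGKJ1. IGKV1-110 was joined to IGKJ4 in 27.1% of 144 contigs, and IGKV14-126 to IGKJ5 in 70.5% of 61. In 36 of the 39 IGKV1-110 contigs joined to IGKJ4 the rearrangement was the same. Their median was 15.5 UMIs, against 29 for all IGKJ4 contigs at this minimum.

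**Figure D2:**
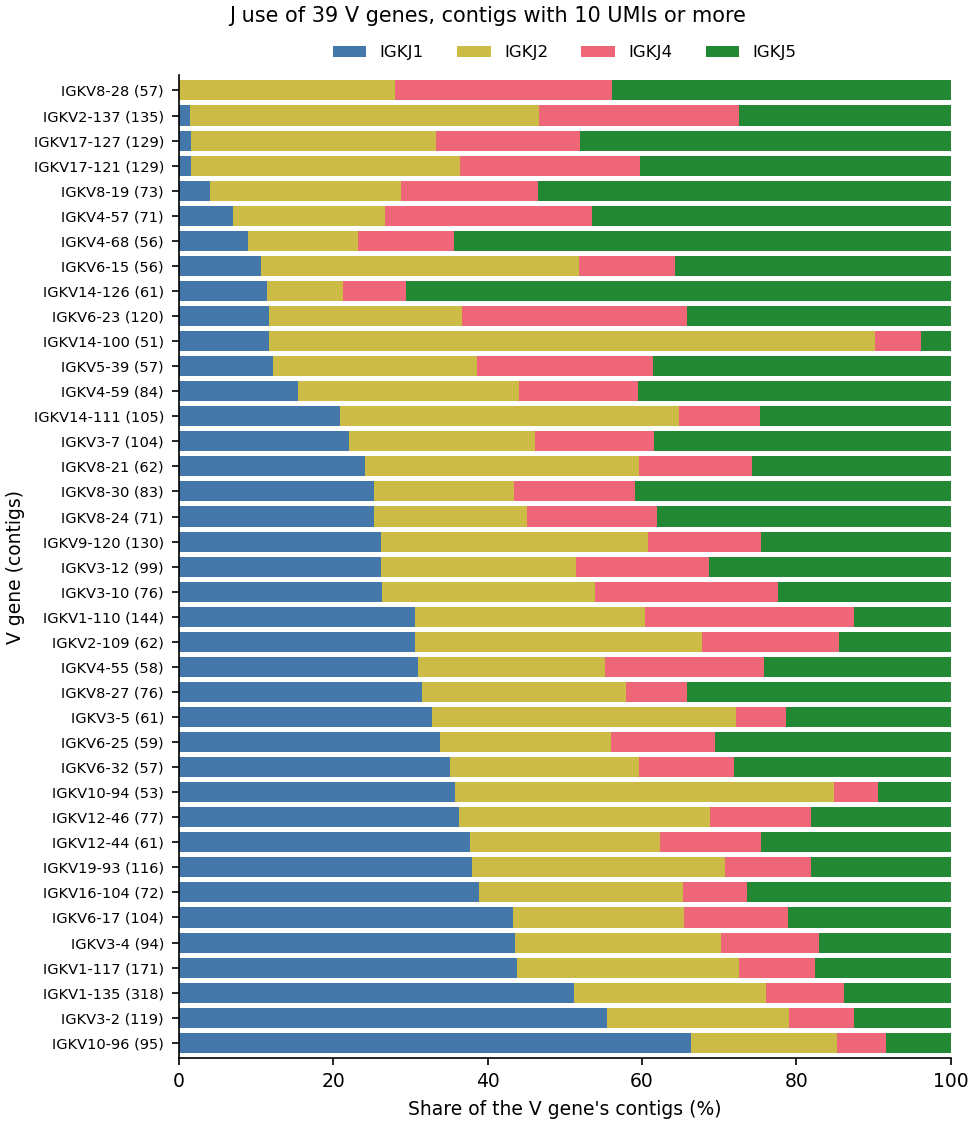
Share of each V gene's contigs (x axis, %) joined to IGKJ1, IGKJ2, IGKJ4 and IGKJ5 (coloured stretches of each bar) for the 39 V genes with at least 50 contigs of 10 UMIs or more, ordered by IGKJ1 share, with contig numbers in parentheses (y axis). The IGKJ1 stretch runs from 0% in IGKV8-28 to 66.3% in IGKV10-96.

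Among these contigs, all called productive, some well-covered V genes were almost never joined to IGKJ1. Other joins in the cells are not covered. IGKV2-137 was joined to it in 1.48% of 135 contigs, and IGKV17-121 and IGKV17-127 in 1.55% of 129 contigs each. Their germline ends are shown from the cysteine codon that opens the CDR3, beside 3 V genes with other ends, because the end of the V segment makes up the junction together with the J segment. Capitals mark the last 4 bases.
IGKV2-137: tgtatgcaacatctagaatatcCTTT
IGKV17-127: tgtttgcaaagtgataacatgcCTCT
IGKV17-121: tgtttgcaaagtgataacttgcCTCT
IGKV1-135: tgctggcaaggtacacattttcCTCA
IGKV10-96: tgccaacagggtaatacgcttcCTCC
IGKV8-28: tgtcagaatgatcatagttatcCTCC
The ends were compared after the J shares had been seen, as a description. All 5 of the 39 V genes that end in CTCT or CTTT (569 contigs) had an IGKJ1 share whose interval lay below the overall share, from 1.48 to 11.7% with a median of 1.55%. The other 34 had shares from 0 to 66.3% with a median of 30.6%, and 8 lay below. A low IGKJ1 share was not particular to these ends, as 3 of the 4 V genes that end in CCCA also lay below (median 12.2% over the 4). V genes with the same end also differed: 25 end in CTCC, and IGKV10-96 and IGKV8-28, the highest and the lowest for IGKJ1, are both among them.

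How far away the V segments of each J segment lay depended on the limit that was set and on what was counted. Distance was measured from the V gene to IGKJ1, and V genes over 1500 kb away were called distal. Distal V genes were in 53.5% of IGKJ1 (51.2 to 55.8%), 59.9% of IGKJ2, 53.3% of IGKJ4 and 47.3% of IGKJ5 contigs (45.1 to 49.4%). With contigs of 10 UMIs or more these were 53.7, 54.4, 44.1 and 41.4%, so IGKJ4 was then nearer to IGKJ5 than to IGKJ1. With each rearrangement counted once they were 45.1, 46.9, 44.3 and 37.9%, and IGKJ5 was lowest in all 3 counts at this limit. Without rearrangements shared with a contig of 1000 UMIs or more they were 49.6, 39.6, 41.0 and 39.5%. IGKJ2 was then nearer to IGKJ4 and IGKJ5 than to IGKJ1. With a limit of 1000 kb, the distal shares over all contigs were 62.2% for IGKJ1 (59.9 to 64.4%) and 61.2% for IGKJ5 (59.1 to 63.3%), and the intervals overlapped. Median distances at 10 UMIs or more were 1812 kb for IGKJ1, 1915 kb for IGKJ2, and 1222 kb for IGKJ4 and for IGKJ5.

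Counted by contigs, the gap between segments lay mainly in 2 stretches of the V locus. V genes 2000 to 2500 kb away gave 17.6% of IGKJ1, 18.3% of IGKJ2, 11.5% of IGKJ4 and 7.73% of IGKJ5 contigs of 10 UMIs or more. V genes 1000 to 1500 kb away gave 6.44, 8.49, 14.4 and 15.2% in the same order. The gaps were smaller with each rearrangement of 10 UMIs or more counted once. The shares were then 13.7, 13.5, 9.77 and 10.5% at 2000 to 2500 kb, and 14.7, 16.3, 17.7 and 17.7% at 1000 to 1500 kb. The nearest V genes, within 500 kb, were used to a like extent, in 24.4% of IGKJ1, 22.8% of IGKJ2, 24.1% of IGKJ4 and 22.8% of IGKJ5 contigs.

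**Figure D3:**
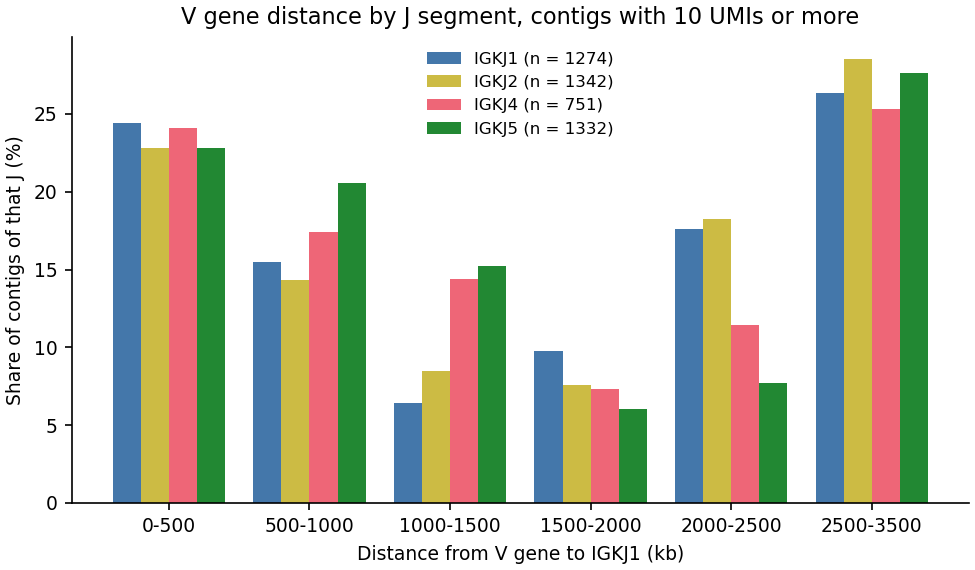
Share of the contigs of each J segment (y axis, %) by distance of the V gene from IGKJ1 (x axis, kb), for contigs of 10 UMIs or more in the control B220lo library. At 2000 to 2500 kb the bars step down from IGKJ1 and IGKJ2 (17.6 and 18.3%) to IGKJ5 (7.73%), and at 1000 to 1500 kb IGKJ4 and IGKJ5 are higher (14.4 and 15.2%).

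Orientation went the same way when contigs were counted. V genes on the minus strand, which join by inversion, were in 40.3% of IGKJ1, 42.7% of IGKJ2, 50.7% of IGKJ4 and 52.3% of IGKJ5 contigs of 10 UMIs or more. Over all contigs the shares were 42.0, 43.1, 43.5 and 49.1%, and over distinct rearrangements 56.0, 56.1, 58.5 and 61.1%. With each rearrangement of 10 UMIs or more counted once they were 57.9, 55.8, 58.6 and 59.0%. IGKJ1 was then above IGKJ2, and all 4 intervals overlapped (52.0 to 63.6% for IGKJ1 and 53.6 to 64.3% for IGKJ5). Seen from the V side, IGKJ5 took 32.2% of the contigs of inversion V genes and 25.1% of those of deletion V genes, while IGKJ1 took 23.7 and 30.0%. Distance and orientation are linked along this locus, and their parts were not separated.

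The same CDR3 length was most frequent with each J segment. A CDR3 of 11 residues, counted with its first cysteine and last phenylalanine, was in 85.8% of IGKJ1, 88.5% of IGKJ2, 91.2% of IGKJ4 and 87.4% of IGKJ5 contigs, and in 87.3, 85.3, 88.1 and 85.7% of those of 10 UMIs or more. A CDR3 of 10 residues was in 10.3% of IGKJ1 contigs against 3.66% of IGKJ4 contigs (8.56 and 4.26% at 10 UMIs or more). Counting each rearrangement once lowered the 11-residue share to 70.0, 64.7, 66.8 and 66.1%, so rearrangements of that length were found in more contigs each than the others.

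The residue at the junction was set largely by the J segment. It was tyrosine in 87.5% of IGKJ2 contigs, phenylalanine in 89.8% of IGKJ4 contigs and leucine in 88.6% of IGKJ5 contigs, as each germline segment encodes. IGKJ1 was the most varied, with its germline tryptophan in 55.7%, arginine in 30.7% and proline in 8.94% of contigs. At 10 UMIs or more the germline residue was in 57.7% of IGKJ1, 86.8% of IGKJ2, 87.4% of IGKJ4 and 86.7% of IGKJ5 contigs. The residue before it, usually given by the V segment, was proline in 86.4 to 90.9% of contigs of the 4 segments. The J end was complete in 52.7% of IGKJ1, 7.38% of IGKJ2, 76.3% of IGKJ4 and 56.2% of IGKJ5 contigs, and in 54.9, 8.83, 80.9 and 58.4% at 10 UMIs or more. With each rearrangement counted once at that minimum, these were 42.3, 17.1, 63.4 and 43.0%. The complete end in the CDR3 is 11 bases in IGKJ2 and 10 in each other segment, so the measure is not alike between segments. In 80.2% of all IGKJ2 contigs 1 or 2 bases of that end were missing. Bases that match the end of both segments were given to J here, so the J end is counted as long as it can be, and 92.8 to 99.1% of contigs could be matched to a germline V end. Bases between the stretches that match the germline V and J ends, which also arise where a base inside the V part differs, were in 4.98% of IGKJ1, 6.47% of IGKJ2, 7.61% of IGKJ4 and 5.73% of IGKJ5 contigs of 10 UMIs or more. Those shares were 13.0, 8.07, 9.04 and 8.20% over all contigs, and 13.7, 22.6, 21.1 and 19.5% when each rearrangement of 10 UMIs or more was counted once. Both the level and the order of the segments thus changed with what was counted.

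A second kappa contig was found in about 1 in 10 kappa cells, and to a like extent with each J segment. Of 6701 barcodes with an IGK contig, 701 had 2 (10.5%, 9.74 to 11.2%), and the most light-chain contigs in any barcode was 2. The share was 7.85% (342 of 4357) when contigs had 10 UMIs or more and 6.61% (258 of 3902) when barcodes with 2 heavy-chain (IGH) contigs were also left out. Barcodes with 2 IGH contigs can be doublets, and 22.5% of them had 2 IGK contigs, against 9.32% of those with at most 1. Of barcodes with 1 IGH contig, 10.4% (570 of 5506) had 2 IGK contigs. Of those with no IGH contig 0 of 613 did, which allows a share of up to 0.489% by counting alone. Whether the calling of contigs or cells set this 0 was not tested. The weaker of the 2 contigs had under 10 UMIs in 51.2% of the 701 barcodes. By segment, 19.2% of IGKJ1, 18.0% of IGKJ2, 18.8% of IGKJ4 and 19.8% of IGKJ5 contigs lay in a barcode with 2 IGK contigs. Among contigs of 10 UMIs or more, whatever the UMIs of the other contig, the shares were 18.1, 16.2, 16.4 and 18.5%.

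All 10 J pairs occurred in cells with 2 IGK contigs, close to what the J shares alone give. IGKJ2 with IGKJ5 was in 110 barcodes against 118 from the product of the shares, IGKJ1 with IGKJ5 in 109 against 104, and IGKJ1 with IGKJ2 in 106 against 97.3. IGKJ2 with IGKJ4 was in 72 against 67.4, IGKJ5 with itself in 69 against 63.2, IGKJ4 with IGKJ5 in 64 against 72.4, and IGKJ1 with IGKJ4 in 63 against 59.8. IGKJ2 with itself was in 52 against 54.8, IGKJ1 with itself in 35 against 43.2 and IGKJ4 with itself in 21 against 20.7. In total the same J segment was on both contigs in 177 barcodes against 182, and in 97 against 90.7 where both had 10 UMIs or more. In those 342 barcodes IGKJ1 was 30.4% of the stronger and 24.9% of the weaker contigs and IGKJ5 29.2 and 33.3%, with overlapping intervals. IGKJ4 was 41 of the stronger and 60 of the weaker contigs.

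A lambda contig was found more often beside IGKJ5 than beside IGKJ1. Among barcodes with 1 IGK contig, 3.55% of IGKJ1 (52 of 1464), 4.04% of IGKJ2 (72 of 1783), 4.60% of IGKJ4 (48 of 1043) and 5.20% of IGKJ5 barcodes (89 of 1710) also had an IGL contig. With both contigs at 10 UMIs or more the shares were 2.30% (upper bound 3.38%), 2.93%, 3.38% and 5.19% (3.96 to 6.65%). Leaving out barcodes with 2 IGH contigs as well gave 1.53% (0.857 to 2.51%), 1.98%, 2.20% and 4.25% (3.09 to 5.69%). In these 3 counts the share went up in the order of the segments along the chromosome (at 3 UMIs or more IGKJ1 and IGKJ2 were level, at 3.10 and 3.04%), and the intervals of IGKJ1 and IGKJ5 were apart once low-UMI contigs were left out. Barcodes with an IGK and an IGL contig had 2 IGH contigs in 24.1%, against 6.76% of those with 1 IGK and no IGL contig. The part of doublets in the lambda shares was not tested beyond leaving those barcodes out.

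**Figure D4:**
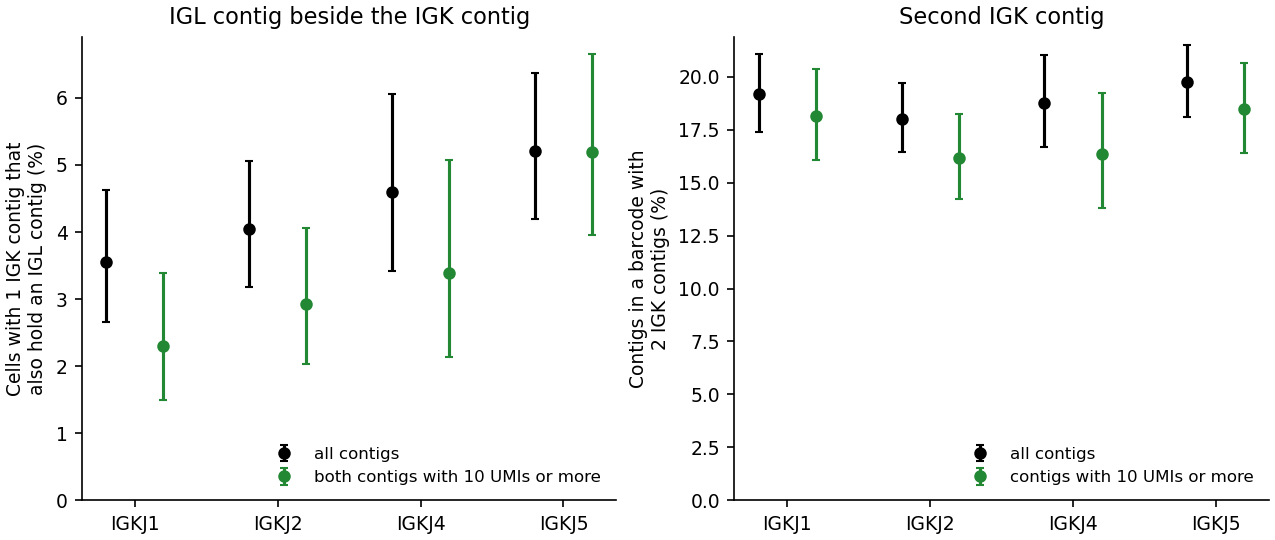
Shares (y axes, %) by J segment (x axes), with exact 95% intervals as bars. Left, barcodes with 1 IGK contig that also hold an IGL contig, for all contigs and with both contigs at 10 UMIs or more. Right, IGK contigs in a barcode with 2 IGK contigs, for all contigs and for contigs of 10 UMIs or more, whatever the UMIs of the other contig. The lambda share steps up from IGKJ1 to IGKJ5 (2.30 to 5.19% at 10 UMIs or more), and the share with a second kappa contig is 16.2 to 19.8% throughout.

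RNA of the cells was read in 5281 barcodes with 1 IGK, no IGL and at most 1 IGH contig that passed the cell filters, 1297 for IGKJ1, 1574 for IGKJ2, 923 for IGKJ4 and 1487 for IGKJ5. Their median depth was 3204, 3197, 3001 and 2973 UMIs, and each cell was thinned to 1000 UMIs so that shares of cells with a UMI could be set side by side. All 8 B-lineage markers were detected in each group, at a summed level of 10478 to 11508 UMIs per 1000000 (CPM) against 993 in the 677 barcodes with NK and T markers. Granulocyte and monocyte markers, 8 of 8 detected, summed to 2089 CPM in IGKJ1, 2668 in IGKJ2, 2973 in IGKJ4 and 4156 in IGKJ5 cells, against 2286 in the barcodes with NK and T markers. Plasma cell markers, 4 of 4 detected, summed to 3018, 4923, 2464 and 3310 CPM, against 119.9.

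Ms4a1, which encodes the surface protein CD20 of B cells past the early precursor stages, was found most often in IGKJ1 cells. After thinning it was in 36.9% of IGKJ1 (34.2 to 39.6%), 30.1% of IGKJ2, 29.1% of IGKJ4 and 34.0% of IGKJ5 cells (31.6 to 36.4%). Without thinning the shares were 49.4, 43.8, 43.1 and 48.6%, and the summed levels were 671, 493, 526 and 553 CPM. In cells whose contig had 10 UMIs or more the thinned shares were higher and nearer each other, at 46.3, 41.6, 42.5 and 45.0%. In cells whose contig had under 10 UMIs they were 13.6, 10.2, 9.60 and 15.6%. The Ms4a1 share thus differed more between the UMI classes than between the J segments. The share in cells with NK and T markers was 2.07% at a median depth of 5024 UMIs.

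Rag1 and Rag2, the recombinase genes, were found least often in IGKJ1 cells before low-UMI contigs were left out. Rag1 was in 9.18% of IGKJ1 (7.66 to 10.9%), 12.5% of IGKJ2, 11.8% of IGKJ4 and 12.8% of IGKJ5 cells (11.2 to 14.7%), and unthinned in 22.2, 26.4, 26.0 and 26.2%. In cells whose contig had 10 UMIs or more the Rag1 shares were 5.86% (4.43 to 7.57%), 6.63%, 8.03% and 8.19% (6.51 to 10.1%), still lowest for IGKJ1 but with overlapping intervals. Below 10 UMIs they were 17.3, 22.7, 17.3 and 20.6%. Rag2 was in 4.39, 4.96, 6.83 and 5.31% of cells in the order IGKJ1, IGKJ2, IGKJ4 and IGKJ5, and unthinned in 13.1, 14.6, 20.3 and 15.5%. With contigs of 10 UMIs or more it was in 3.58, 3.41, 3.65 and 2.59%, so IGKJ5 was then lowest. The background in cells with NK and T markers was 1.03% for Rag1 and 0.739% for Rag2. As a reference, cells with a heavy chain and no light chain had Rag1 in 21.2%, Rag2 in 10.1% and Ms4a1 in 6.78% of 1799 cells.

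**Figure D5:**
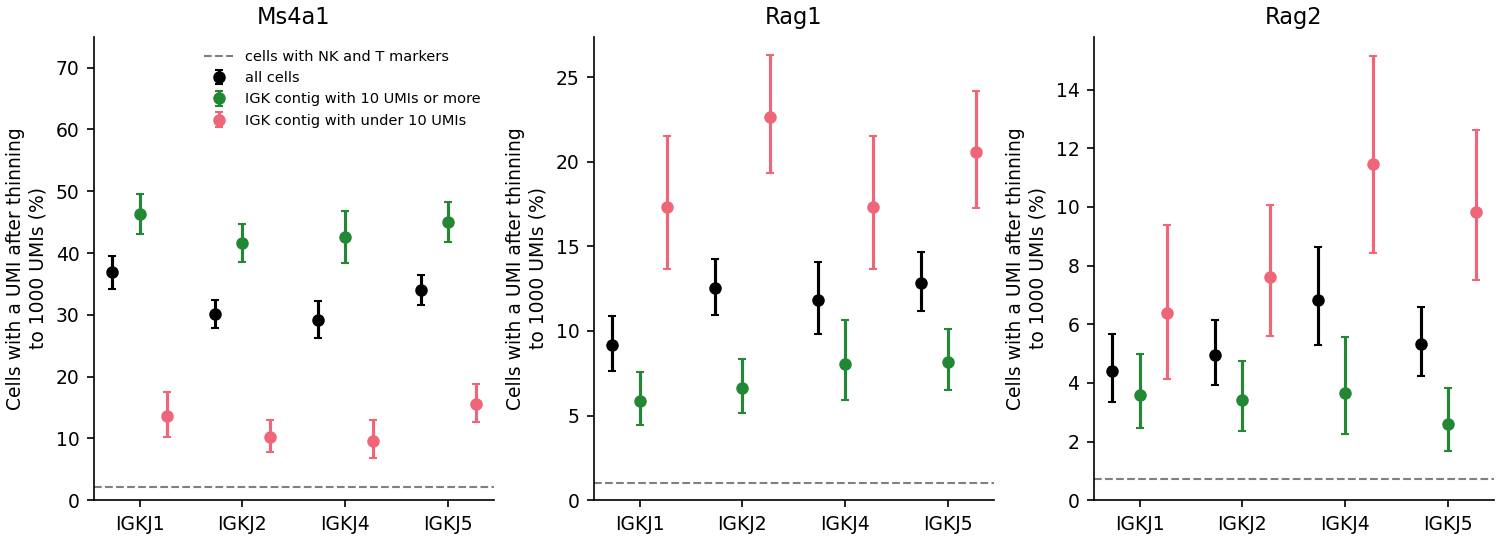
Share of cells with at least 1 UMI of Ms4a1, Rag1 and Rag2 (y axes, %, on different scales) after thinning to 1000 UMIs, by J segment (x axes), for all cells, cells whose IGK contig has 10 UMIs or more and cells with under 10 UMIs, with exact 95% intervals as bars and the share in cells with NK and T markers as a dashed line. For Ms4a1 and Rag1, the points of the 2 UMI classes lie further apart than those of the 4 J segments, for example 46.3 and 13.6% for Ms4a1 in IGKJ1 cells. This does not hold throughout for Rag2.

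The 2 sets of cells with 2 light chains were small, and their intervals for Rag1 and Rag2 were wide. With both IGK contigs at 10 UMIs or more, Ms4a1 was in 54.3% (48.0 to 60.5%), Rag1 in 6.59% (3.88 to 10.3%) and Rag2 in 3.49% (1.61 to 6.52%) of 258 cells. With an IGK and an IGL contig at 10 UMIs or more, the shares were 57.6% (46.9 to 67.9%), 7.61% (3.11 to 15.1%) and 3.26% (0.678 to 9.23%) of 92 cells. As point values, Rag1 and Rag2 lay within the range that the 4 J segments had at the same UMI minimum (5.86 to 8.19% and 2.59 to 3.65%), and the Ms4a1 values were above it (41.6 to 46.3%).

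Few genes differed by more than 1.5-fold between IGKJ5 and IGKJ1 cells. Of 8002 genes with at least 100 UMIs in the higher group, 161 (2.01%) differed by more than 1.5-fold in CPM, 107 (1.34%) higher and 54 (0.675%) lower in IGKJ5 cells. Fold changes are on the scale of log2(CPM + 1), IGKJ5 over IGKJ1, and the median over all genes was -0.005. With contigs of 10 UMIs or more, 154 of 6358 genes (2.42%) were past 1.5-fold, 1.38% higher and 1.04% lower in IGKJ5 cells.

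Among the 16 genes of recombination and kappa locus control, 1 was past 1.5-fold (2.01% over all genes), with 7 above and 9 below 0 and a median of -0.04. That gene was Dntt, which encodes terminal transferase, the enzyme that adds untemplated bases at junctions. It stood at 80.7 CPM in IGKJ5 and 48.2 CPM in IGKJ1 cells, a ratio of 1.67 (1.45 to 1.93), and at 64.6 and 33.4 CPM in cells with contigs of 10 UMIs or more. After thinning, a Dntt UMI was in 38 of 1297 IGKJ1, 77 of 1574 IGKJ2, 41 of 923 IGKJ4 and 59 of 1487 IGKJ5 cells. IGKJ1 was thus lowest, and IGKJ5 was not highest. Rag1 was at 96.2 and 78.5 CPM (log2 ratio 0.29) and Rag2 at 45.0 and 37.3 CPM (0.26). At 10 UMIs or more per contig, Rag1 was at 63.6 and 56.2 CPM, a ratio of 1.13 (0.948 to 1.35), and Rag2 at 30.9 and 31.5 CPM, with the sign turned (-0.03). Of the factors that act on the kappa locus, Ikzf1 was lower in IGKJ5 cells by a ratio of 0.880 (0.842 to 0.919) and Pax5 by 0.902 (0.859 to 0.948), both within 1.5-fold. The intervals of Irf4 (0.995, 0.920 to 1.08) and Foxo1 (1.05, 0.975 to 1.13) covered 1. Irf4 was at 0.853 (0.763 to 0.953) in cells whose contig had at least 10 but under 1000 UMIs. Xrcc5, also of this list, was higher in IGKJ5 cells at a ratio of 1.48 (1.11 to 1.97). With contigs of 10 UMIs or more it had too few UMIs to be counted, though its ratio of 1.68 (1.14 to 2.50) was past 1.5-fold.

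Of the 12 pre-B and cycling genes, 1 was past 1.5-fold (2.01% over all genes) and the median was 0.03. Erg, a transcription factor of early progenitors, was at 34.7 CPM in IGKJ5 and 22.5 CPM in IGKJ1 cells. At 10 UMIs or more per contig it had too few UMIs to be counted, and its log2 ratio of 0.50 was under 1.5-fold. The surrogate light-chain genes, whose products pair with the heavy chain before a light chain is made, were next, with Igll1 at 329 and 247 CPM (log2 ratio 0.41) and Vpreb1 at 229 and 169 CPM (0.43). In cells with contigs of 10 UMIs or more, Igll1 was at 172 and 107 CPM (0.68) and Vpreb1 at 127 and 75.4 CPM (0.75), both then past 1.5-fold. The cycling genes Mki67 (-0.06) and Top2a (0.04) and the receptor gene Il7r (-0.14) were not.

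Most immature and mature B genes were lower in IGKJ5 cells, and none of those with enough UMIs was past 1.5-fold. Of 23 genes, 20 had enough UMIs, 15 of them were below 0 and the median was -0.19, against -0.14 with contigs of 10 UMIs or more. The medians over all genes were -0.005 and -0.02. Genes of class II antigen presentation were among the lowest, with H2-Eb1 at 263 CPM in IGKJ5 and 390 CPM in IGKJ1 cells (log2 ratio -0.57), H2-Aa at 442 and 653 CPM (-0.56), H2-Ab1 at -0.39 and Cd74 at 3479 and 4475 CPM (-0.36). The activation marker gene Cd83 was at 24.7 and 34.0 CPM (-0.45). Cr2, the complement receptor gene of mature B cells, had too few UMIs to be counted, with 54 in IGKJ5 and 89 in IGKJ1 cells (7.74 and 14.7 CPM, a ratio of 0.527, 0.368 to 0.747). With all kappa cells by their strongest contig it had enough, at a ratio of 0.624 (0.462 to 0.841), which is past 1.5-fold. With contigs of 10 UMIs or more these log2 ratios were nearer 0, at -0.39 for H2-Eb1, -0.37 for H2-Aa, -0.25 for H2-Ab1, -0.21 for Cd74 and -0.33 for Cd83. Ms4a1 was at 553 and 671 CPM (-0.28) and Igkc at 1068 and 1319 CPM (-0.30), while Cd79a (0.01) and Ighm (0.05) were level. The summed granulocyte and monocyte markers were higher in IGKJ5 than IGKJ1 cells in the same comparison (4156 against 2089 CPM) but lower with contigs of 10 UMIs or more (1938 against 2488 CPM), and their part in the gene lists was not tested.

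The genes with the widest ratios were those of other blood lineages, and in several of them single cells held most of the UMIs. Higher in IGKJ5 cells were Chil3 (log2 ratio 3.22), Elane (2.23), Camp (1.49), Prtn3 (1.34) and Ms4a3 (1.28), all known from granulocytes and monocytes or their precursors. Lower were Car1 (-4.63), Cstdc4 (-4.53), Cstdc5 (-3.39), Slpi (-1.69) and Hbb-bt (-1.02). Of the 337 Car1 UMIs in IGKJ1 cells, 332 were in 1 cell, and 1 cell held 94.8% of the Hbb-bt UMIs of IGKJ1 cells and 92.6% of those of IGKJ5 cells. Of the Camp UMIs, 1 cell held 66.1% in IGKJ1 and 29.2% in IGKJ5 cells. Slpi was in 140 IGKJ1 and 156 IGKJ5 cells, but 1 IGKJ1 cell held 1249 of its 1964 UMIs (63.6%), and the other IGKJ1 cells held 715 UMIs against 695 in all IGKJ5 cells. Elane was in 80 IGKJ1 and 73 IGKJ5 cells, with 38.2 and 35.7% of the UMIs in 1 cell. Prtn3 was in 58 and 95 cells, with 32.4 and 32.0% in 1 cell. Chil3 rested on 14 UMIs in 7 IGKJ1 cells and 208 UMIs in 11 IGKJ5 cells, with 42.9 and 33.7% in 1 cell.

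In cells with contigs of 10 UMIs or more, the sign turned for Camp (-1.22) and Hbb-bt (3.66). The other 8 kept theirs, with Elane at 2.02, Prtn3 at 1.71, Ms4a3 at 1.57, Chil3 at 1.15, Slpi at -1.63 and Car1 at -5.07. For Slpi and Car1, 1 IGKJ1 cell then held 65.5 and 98.5% of the UMIs, and both turned sign (0.46 and 0.35) when contigs of 1000 UMIs or more were left out too. For Elane, 1 IGKJ5 cell held 60.2% of the UMIs. Cstdc5 had 2 UMIs in IGKJ5 cells and 318 in IGKJ1 cells, the latter in 4 cells with 194 in 1 of them. Cstdc4 had 0 and 141 UMIs, the latter in 3 cells with 71 in 1 of them.

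The 3 Kit+ libraries had few kappa contigs. The control Kit+ library had 32 (30 of 12205 barcodes, 0.246%), Mll3/4 deleted Kit+ 31 (29 of 15091) and Mll3/4SI Kit+ 19 (18 of 12345), against 6701 of 16861 barcodes (39.7%) in control B220lo. IGKJ1, IGKJ2, IGKJ4 and IGKJ5 had 5, 14, 5 and 8 contigs in control Kit+, 4, 7, 5 and 15 in Mll3/4 deleted Kit+, and 3, 8, 3 and 5 in Mll3/4SI Kit+. Their rearrangement was also in the control B220lo library for 27, 19 and 18 contigs. Sharing was common within control B220lo too, where 702 of 7402 contigs had a rearrangement seen in no other contig. In Mll3/4 deleted Kit+, 18 of the 31 had under 10 UMIs. Barcodes shared with the control B220lo library numbered 286, 345 and 249 in the same order, and 1, 0 and 0 of them had a kappa contig in the Kit+ library. With 1 library each and 19 to 32 contigs, J use was not compared between the genotypes.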

How the data were processed

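Single-cell libraries (10x 5′ version 2, per the labels' protocols) of 4 samples, 1 per group, were used as the authors deposited them: UMI counts per gene and barcode, not normalized, and tables of assembled immunoglobulin contigs with read and UMI counts, all called productive. Cell Ranger 7.1.0 and build mm10 are named in the submitters' processing notes. The control B220lo matrix held 85445426 UMIs in 16861 barcodes. For RNA, 16329 barcodes with at least 1000 UMIs, 500 genes and at most 10% mitochondrial UMIs were kept (median 3354 UMIs). No doublet caller was run, and barcodes with over 1 IGH contig were left out of the RNA groups. V and J positions and germline ends came from GENCODE M21, of the same build, where all 97 V genes matched. Contigs without a called constant gene (120) were kept.

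Shares have exact intervals. Gene levels are summed UMIs per 1000000 (CPM), compared on log2(CPM + 1) in genes with at least 100 UMIs in the higher group, with 1.5-fold as the threshold and no test, since each group is 1 library. The comparison of IGKJ5 with IGKJ1 was tested on simulated data. Genes named were the J segments, the 10 V genes with most contigs and the top 3 of each J, 3 gene lists, and the 5 largest ratios each way without receptor, mitochondrial, ribosomal, Gm and Rik genes. Members and lists were chosen with earlier results of these data known. Alternatives were contig and gene minimums, distinct rearrangements, a 1000 kb limit, depth, cell sets, pseudocount and total. Those that leave out contigs under 10 UMIs, or rearrangements shared with a contig of at least 1000 UMIs, were chosen after seeing the data, as was the comparison of V ends. Analyses used Python with numpy 2.4.6, pandas 2.3.3, scipy 1.17.1, Biopython 1.88 and matplotlib 3.10.9.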

Additional observations from a re-analysis of the deposited data

Results flagged for a closer look

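The control Kit+ library, which enters no comparison of J segments, held 32 IGK contigs, above the 3 counts that a count of 0 allows. They lay in 30 barcodes with a median of 32.5 UMIs, 1 contig had under 10 UMIs, and 27 had a rearrangement that was also in the control B220lo library. Within control B220lo, 702 of 7402 contigs had a rearrangement seen in no other contig. 1 of the 30 barcodes was also a barcode of that library.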

How the results depend on the processing

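Every value rests on 1 library, so intervals say nothing of how animals vary, and contigs of few UMIs limit each share that counts them. No paired analysis was possible because each group has 1 library and the labels give no replicate numbers. Of the alternatives to values that answer a comparison, 42 stayed within the main interval (or, for the gene count, within 1.5 times) and 45 moved beyond it. The order of IGKJ1 and IGKJ5 turned at 10 UMIs or more per contig for the Rag2 share (4.39 and 5.31%, then 3.58 and 2.59%) and the 11-residue share (85.8 and 87.4%, then 87.3 and 85.7%), and the latter also with rearrangements counted once. Keeping all kappa cells by their strongest contig, or cells at or under 3 times the median UMI count, moved none of the values that answer a comparison and that they were run on. A pseudocount of 10 CPM and a total without ribosomal protein, mitochondrial and immunoglobulin genes were run on the gene count alone and did not move it. Where no construction is named below, the cause was not tested.

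With contigs of at least 10 UMIs the IGKJ1 share was 27.1% and the IGKJ4 share 16.0%, the distal V share of IGKJ5 41.4% (45.0% at 3 UMIs or more), its 11-residue share 85.7%, and the lambda share beside IGKJ1 2.30% (1.53% with at most 1 IGH contig). Without rearrangements shared with a contig of at least 1000 UMIs, IGKJ1 took 29.2%, IGKJ2 23.6% and IGKJ5 29.9%, distal V shares were 49.6% for IGKJ1 and 39.5% for IGKJ5, and 11-residue shares 83.2 and 83.9%. With rearrangements counted once, IGKJ2 took 26.0%, IGKJ4 18.3% and IGKJ5 30.3%, distal V shares were 45.1 and 37.9% for IGKJ1 and IGKJ5, and 11-residue shares 70.0 and 66.1%. A limit of 1000 kb takes in more V genes, and distal shares became 62.2 and 61.2%, so the gap between IGKJ1 and IGKJ5 was then about 1 percentage point.

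The share of kappa cells with 2 IGK contigs was 8.43% at 3 UMIs or more, 7.85% at 10 or more, 9.32% with at most 1 IGH contig and 6.61% with both. Deeper cells show more UMIs by construction: thinned to 2000 UMIs, IGKJ1 and IGKJ5 cells had Ms4a1 in 45.7 and 43.4%, Rag1 in 15.3 and 17.5% and Rag2 in 6.97 and 9.39%, and without thinning Ms4a1 in 49.4 and 48.6%, Rag1 in 22.2 and 26.2% and Rag2 in 13.1 and 15.5%. With IGK contigs of at least 10 UMIs, Ms4a1 was in 46.3 and 45.0%, Rag1 in 5.86 and 8.19%, and Rag2 in 2.59% of IGKJ5 cells. A minimum of 20 UMIs tests more genes of few counts, and 497 were past 1.5-fold, against 161.

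Of alternatives to single named genes, 26 had the other sign, 6 of them for genes past 1.5-fold and 20 for genes within it, among them Rag2 (-0.03). Of the rest and those 20, 114 stayed within the main counting interval and 63 moved beyond it. Camp turned to -1.22 with IGK contigs of at least 10 UMIs and -1.18 when those of 1000 or more were left out too, and Hbb-bt to 3.66 and 3.75. In the latter cells, Car1 turned to 0.35 and Slpi to 0.46.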
